A study of Bos taurus with 6 samples.

Results

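Prostaglandins are short-lived lipids that endometrial cells make from arachidonic acid, and 10 genes that carry the pathway from the cyclooxygenases to the receptors were followed in cells sorted from the endometrium of cows (Bos taurus), the side population (SP) and the main population (MP). The genes were taken by symbol with earlier results of these data known, and each matched 1 entry of the 34733 named genes. SP cells pump out the DNA dye Hoechst and MP cells retain it, and both were sorted from the stromal cell digest of healthy luteal phase uteri obtained at slaughterhouses, after the luminal epithelium had been removed. The study holds 3 SP and 3 MP libraries, and no treatment, genotype or animal age is given for them. No antibody was used in the sort per the labels, so the gates can hold any cell type of the digest. Whether each replicate is its own animal is not stated in the labels, and p-values thus reflect the spread of these samples, some of which may be technical.

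Cyclooxygenases (PTGS1 and PTGS2) turn arachidonic acid into prostaglandin H, and terminal synthases then make the separate prostaglandins from it. A transporter brings them into cells, where 15-hydroxyprostaglandin dehydrogenase inactivates them, and G protein coupled receptors on the cell surface read them out. In the cow, prostaglandin F2α from the endometrium ends the luteal phase by regression of the corpus luteum, whereas prostaglandin E2 is known to favour its maintenance.

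The measured quantity is FPKM, the fragments of a gene per kilobase of its transcript and per unit of mapped fragments. Values of 3 libraries are given in the order of replicates 1 to 3. From the value that a single fragment takes in low genes, the depth was about 12.4 to 22.5 M (1e+06) fragments in SP and 24.6 to 39.3 M in MP, so each SP library was shallower than each MP library. The test was limma on log2(FPKM + 1), run for the 12127 genes that reached 1 FPKM in 3 or more libraries. A gene rose or fell where the adjusted p was under 0.05, and fold changes are SP minus MP on this log2 scale, where changes of low genes appear smaller than they are. Markers of other cell types differed widely between the populations. Of 15 endothelial markers 14 rose, of 14 stromal fibroblast markers 12 fell, of 10 tested of 11 pericyte and smooth muscle markers 6 fell, and of 11 tested of 12 epithelial markers none passed. Of 11 tested of 12 myeloid markers 9 fell, of 5 tested of 7 mast cell markers 4 fell, and all 7 tested of 11 T and NK cell markers fell. In these 3 leukocyte lists 11 of the tested markers were under 1 FPKM in every SP library, as were DPT, FGF10, HAND2 and WNT2 among the fibroblast markers, so the filter fixed their direction. By most of the fibroblast markers the SP libraries thus went against their stromal label. DCN, a fibroblast proteoglycan, was at 154 ± 35.8 FPKM in SP, against 3884 ± 2283 FPKM in MP (mean ± SD, n = 3). VIM, also of that list, went the other way without passing (limma adjusted p = 0.0952). It was at 2660 ± 613 FPKM in SP, against 1649 ± 473 FPKM in MP (mean ± SD, n = 3).

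Of the 10 genes, 9 were tested. SLCO2A1, the prostaglandin transporter, rose, against 20.5% of all tested genes. The cyclooxygenases PTGS1 and PTGS2 fell, against 18.7% of all tested genes. The 3 terminal synthases PTGES, AKR1B1 and PTGIS did not pass, nor did the dehydrogenase HPGD and the receptors PTGER2 and PTGER4. PTGFR, the receptor of prostaglandin F2α, was under the filter. In all, 3 of 9 were called and these 3 were also the ones without overlap between SP and MP values. Over all tested genes 39.2% were called and 54.8% did not overlap, so neither share stood above that of the whole transcriptome. The median fold change of the 9 was −0.88, against 0.01 over all tested genes. In bulk samples fewer cells of a type and less RNA per cell cannot be told apart, and this holds for each value below.

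**Figure D1:**
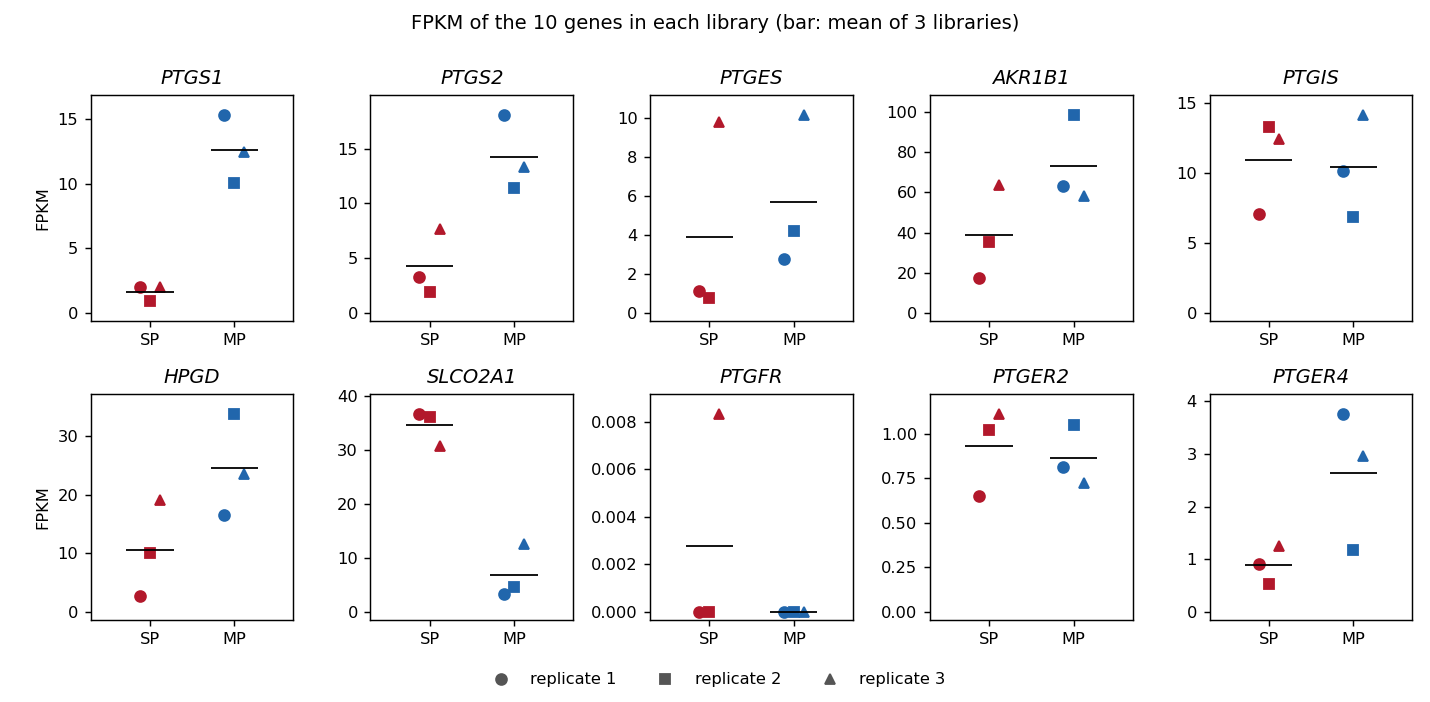
FPKM of the 10 genes in each of the 3 SP and 3 MP libraries, with symbols for the replicates and a bar at the mean. SP and MP values do not overlap for PTGS1, PTGS2 and SLCO2A1, and PTGFR has a value in 1 library alone.

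PTGS1 encodes the cyclooxygenase that many tissues make constitutively. It was at 1.99, 0.938 and 2.02 FPKM in SP, against 15.3, 10.0 and 12.5 FPKM in MP. All SP values lay under all MP values, and the means were 1.65 ± 0.616 FPKM in SP and 12.6 ± 2.66 FPKM in MP (mean ± SD, n = 3). Its log2 fold change was −2.37 with an SE of 0.28 (limma adjusted p = 0.00193), and an exact permutation test (two-sided) gave p = 0.1, the smallest that 3 against 3 libraries can give. PTGS1 was above 14.8% of tested genes in mean SP level and above 63.7% in mean MP level.

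PTGS2 encodes the cyclooxygenase that cytokines and growth factors induce, and that is the form mostly tied to prostaglandin output of the uterus. It was at 3.28, 1.88 and 7.63 FPKM in SP, against 18.1, 11.4 and 13.4 FPKM in MP. The groups did not overlap, with SP replicate 3 nearest to MP. Means were 4.26 ± 3.00 FPKM in SP and 14.3 ± 3.45 FPKM in MP (mean ± SD, n = 3), a fold change of −1.67 with an SE of 0.41 (limma adjusted p = 0.0174). The call was lost without SP replicate 1 (−1.59, limma adjusted p = 0.0567) and without MP replicate 1 (−1.49, limma adjusted p = 0.0567).

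The balance of the cyclooxygenases was read within each library, where the scaling between libraries has no part. PTGS2 over PTGS1 was 1.65, 2.00 and 3.77 in SP, against 1.18, 1.14 and 1.07 in MP. PTGS2 thus exceeded PTGS1 in all 6 libraries, and the ratio was higher in every SP library than in any MP library. The mean log2 ratio was 1.21 ± 0.63 in SP and 0.17 ± 0.07 in MP (mean ± SD, n = 3), a difference of 1.04 (exact two-sided permutation p = 0.1, the smallest possible; 0.3 after adjustment over 6 ratios). On the log2 scale the SP libraries ran from 0.72 to 1.92 and the MP libraries from 0.10 to 0.24.

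Summed markers of myeloid and mast cells, both known sources of cyclooxygenase products, were also lower in SP. The summed level of 12 myeloid markers was 123 to 145 FPKM in SP and 671 to 1230 FPKM in MP, and that of 7 mast cell markers 83.6 to 210 FPKM in SP and 730 to 1374 FPKM in MP. CD14 and CD68, which did not pass, made up most of the myeloid sum in SP. Without them it was 5.98, 7.63 and 18.5 FPKM in SP, against 601, 904 and 1106 FPKM in MP. Without SRGN and KIT the mast cell sum was 1.61, 1.15 and 9.55 FPKM in SP, against 394, 646 and 957 FPKM in MP. The gaps thus depend on the markers kept, and CD14 and KIT had higher means in SP (97.6 and 21.9 FPKM) than in MP (63.7 and 12.2 FPKM). PTGS1 differed 7.66-fold and PTGS2 3.35-fold between the MP and SP means. Per 1000 FPKM of the full myeloid sum, PTGS1 overlapped between the groups (highest over lowest library 3.02), as did PTGS2 (5.72). Over the full mast cell sum both overlapped as well (2.85 for PTGS1 and 9.49 for PTGS2). These overlaps hold for the full sums alone. Over the myeloid sum without CD14 and CD68, and over the mast cell sum without SRGN and KIT, neither gene overlapped. There both genes were higher in every SP library than in any MP library. Pericyte and smooth muscle markers were lower in SP as well, with summed levels of 338 to 540 FPKM in SP and 1196 to 1977 FPKM in MP. Per 1000 FPKM of these PTGS2 overlapped between the groups (highest over lowest library 3.17), whereas PTGS1 did not (4.26). Over fibroblast markers PTGS2 overlapped (5.71) and PTGS1 did not (8.75), and over epithelial markers both did (17.2 for PTGS2 and 29.2 for PTGS1). Neither overlapped over endothelial or T and NK cell markers. The part of any of these cells in the lower cyclooxygenase levels was not tested, and these sums and scales were chosen after values were seen.

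The terminal synthases were led by AKR1B1, an aldo-keto reductase that acts as a prostaglandin F synthase in the bovine endometrium. It was at 17.1, 35.2 and 63.9 FPKM in SP, against 63.0, 98.7 and 58.3 FPKM in MP. SP replicate 3 lay above 2 of the MP libraries, so the groups overlapped. Means were 38.7 ± 23.6 FPKM in SP and 73.3 ± 22.1 FPKM in MP (mean ± SD, n = 3), and the fold change of −1.05 (95% interval −2.11 to 0.01) did not pass (limma adjusted p = 0.102). Without SP replicate 3 it passed at −1.50 (limma adjusted p = 0.0366), and without SP replicate 1 it was −0.58 (limma adjusted p = 0.276). AKR1B1 had the highest mean level of the 10 genes in both populations.

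PTGES, the inducible synthase of prostaglandin E2, varied more within each population than between them. It was at 1.11, 0.760 and 9.81 FPKM in SP and at 2.77, 4.18 and 10.2 FPKM in MP. The libraries numbered 3 were the highest in both populations, and the highest SP value was 12.9 times the lowest. The fold change of −0.81 (95% interval −2.46 to 0.83) did not pass (limma adjusted p = 0.384). It passed at −1.64 without SP replicate 3 (limma adjusted p = 0.0453), and was −0.33 without SP replicate 2 (limma adjusted p = 0.745). At each replicate number the SP value was below the MP value. With the replicate number as a block the fold change did not pass either (limma adjusted p = 0.0963), and whether the numbers pair the samples is not known.

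PTGIS, which makes prostacyclin, a dilator of blood vessels, was at 7.08, 13.3 and 12.4 FPKM in SP, against 10.2, 6.88 and 14.1 FPKM in MP. The ranges overlapped almost wholly, and the fold change was 0.07 (95% interval −0.70 to 0.85; limma adjusted p = 0.873). The interval leaves room for a change of either sign. The summed level of the endothelial markers was 1780 to 2844 FPKM in SP and 200 to 1081 FPKM in MP. Per 1000 FPKM of endothelial markers PTGIS was 2.49, 6.24 and 6.97 FPKM in SP and 50.8, 19.0 and 13.1 FPKM in MP. The groups were apart on this scale, and also over pericyte and smooth muscle, myeloid, mast cell, and T and NK cell markers. They overlapped over fibroblast and epithelial markers. The part of any of these cells in the PTGIS level was not tested.

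Within libraries the mix of synthases did not part the populations. PTGES over AKR1B1 was 0.0650, 0.0216 and 0.154 in SP, against 0.0440, 0.0424 and 0.174 in MP. The log2 difference was −0.20 (exact two-sided permutation p = 0.9, and 0.9 after adjustment over 6 ratios), and its sign turned when single libraries were left out (−0.87 to 0.54). PTGIS over PTGES was 6.35, 17.5 and 1.26 in SP and 3.67, 1.64 and 1.39 in MP, a log2 difference of 1.36 (exact two-sided permutation p = 0.4; adjusted 0.48). AKR1B1 exceeded PTGES in each library, by the widest margin in SP replicate 2.

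**Figure D2:**
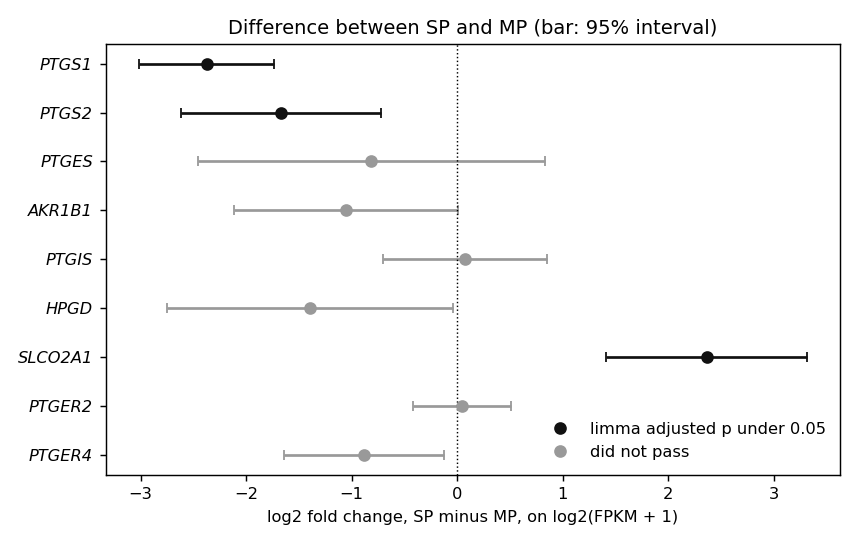
Fold change (SP minus MP, log2 scale) of the 9 tested genes with 95% intervals from limma, black where the adjusted p was under 0.05. PTGS1 and PTGS2 lie left of 0 and SLCO2A1 right of it, and the intervals of PTGES, AKR1B1, PTGIS and PTGER2 include 0.

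SLCO2A1 encodes the carrier that takes up prostaglandins across the cell membrane. It was at 36.7, 36.2 and 30.8 FPKM in SP, against 3.35, 4.57 and 12.5 FPKM in MP. No values overlapped, and the SP libraries were close to each other (highest over lowest 1.19), whereas MP replicate 3 stood above the other MP libraries (highest over lowest 3.74). Means were 34.6 ± 3.26 FPKM in SP and 6.81 ± 4.98 FPKM in MP (mean ± SD, n = 3), 5.08 times as high in SP. The fold change was 2.36 with an SE of 0.41 (limma adjusted p = 0.00583; exact two-sided permutation p = 0.1, the smallest possible).

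The endothelial markers rose in the same libraries and in nearly the same proportion. Their summed level was 2844, 2131 and 1780 FPKM in SP and 200.1, 362.5 and 1081 FPKM in MP, the same order over the 6 libraries as SLCO2A1. Per 1000 FPKM of endothelial markers, SLCO2A1 was at 12.9, 17.0 and 17.3 FPKM in SP and at 16.7, 12.6 and 11.6 FPKM in MP. On this scale the groups overlapped, and the highest library was 1.50 times the lowest. Among 63 such ratios (9 tested genes over 7 marker lists, computed after values were seen) this was the smallest spread, and the next was 2.73. The share of the rise that goes with endothelial RNA was not tested. The locus listed for SLCO2A1 is shared with LOC112447873, which reached at most 3.39 FPKM.

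HPGD encodes the dehydrogenase that inactivates prostaglandins once they are inside the cell. It was at 2.71, 10.0 and 19.0 FPKM in SP, against 16.5, 33.7 and 23.5 FPKM in MP. SP replicate 3 lay above MP replicate 1, so the groups overlapped, and the SP libraries spread over 7.03 times. Means were 10.6 ± 8.18 FPKM in SP and 24.6 ± 8.65 FPKM in MP (mean ± SD, n = 3). The fold change of −1.40 (95% interval −2.75 to −0.04) missed the threshold (limma adjusted p = 0.0913), but it passed at −1.95 without SP replicate 3 (limma adjusted p = 0.0381). Without SP replicate 1 it was −0.73 (limma adjusted p = 0.213).

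HPGD and AKR1B1 shared their lowest and highest libraries, SP replicate 1 and MP replicate 2, with the epithelial markers. The summed level of 12 epithelial markers was 195, 1828 and 1006 FPKM in SP and 1023, 4708 and 1261 FPKM in MP. Per 1000 FPKM of these markers HPGD was at 13.9, 5.48 and 18.9 FPKM in SP and at 16.2, 7.17 and 18.6 FPKM in MP. For AKR1B1 the values were 87.8, 19.2 and 63.5 FPKM in SP and 61.6, 21.0 and 46.2 FPKM in MP. For both genes the groups overlapped on this scale, as they did in FPKM itself, and the libraries numbered 2 were the lowest in each population. Both also overlapped over fibroblast and mast cell markers, and HPGD over myeloid markers, so the overlap is not particular to epithelial markers. The highest library was 3.45 times the lowest for HPGD and 4.56 times for AKR1B1. Over pericyte and smooth muscle markers, also with overlap, it was 4.41 times for HPGD and 3.71 times for AKR1B1. The part of RNA of these cells was not tested.

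**Figure D3:**
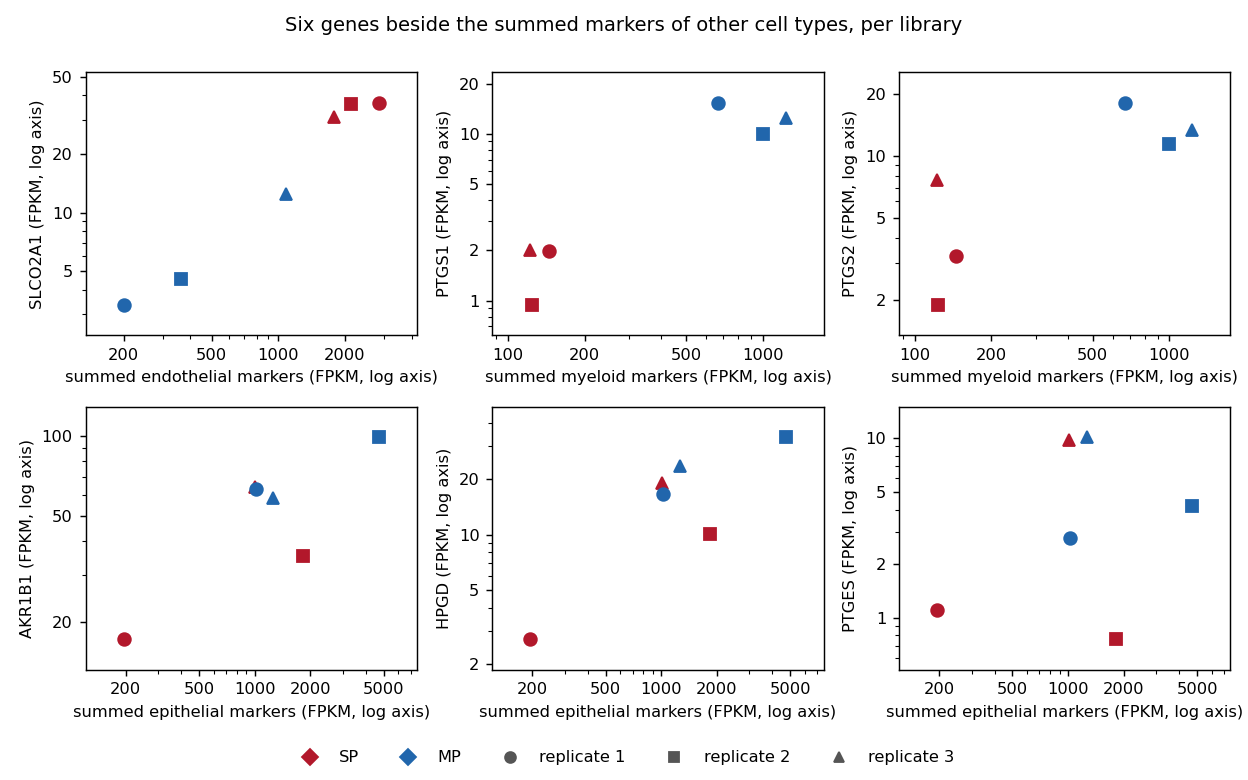
FPKM of SLCO2A1, PTGS1, PTGS2, AKR1B1, HPGD and PTGES (vertical log axes) against the summed FPKM of a marker list (horizontal log axes), 1 point per library, red for SP and blue for MP. SLCO2A1 and the endothelial markers have the same order over the 6 libraries, while PTGES is highest in the libraries numbered 3.

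RNA of the transporter was also set against that of the dehydrogenase within each library. SLCO2A1 over HPGD was 13.6, 3.62 and 1.62 in SP, against 0.202, 0.135 and 0.533 in MP. Transporter RNA thus exceeded dehydrogenase RNA in every SP library and was below it in every MP library. Whether both RNAs are in the same cells was not tested. The log2 difference of 4.14 had an exact two-sided permutation p of 0.1, the smallest possible, and 0.3 after adjustment over 6 ratios. HPGD over the sum of PTGS1 and PTGS2, also a ratio of RNA, was 0.514, 3.55 and 1.97 in SP and 0.495, 1.58 and 0.907 in MP. Its log2 difference was 0.78 (exact two-sided permutation p = 0.4; adjusted 0.48), and the lowest library of each population was the one numbered 1.

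**Figure D4:**
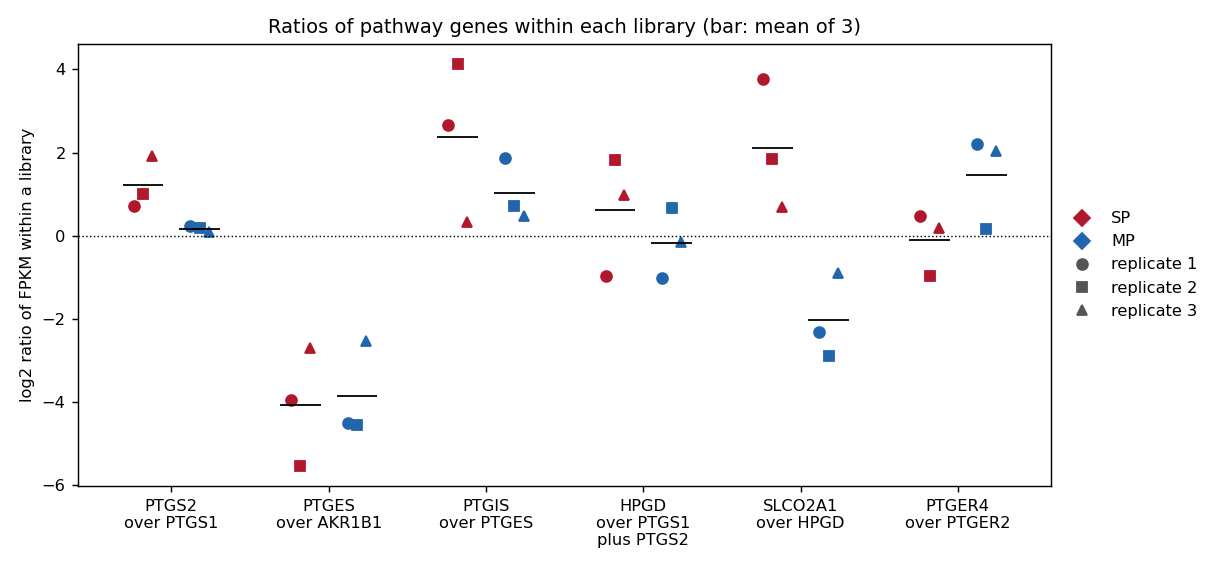
Log2 ratio of 2 FPKM values of the same library for 6 pairs of pathway genes, red for SP and blue for MP, with a bar at the mean of 3. Only PTGS2 over PTGS1 and SLCO2A1 over HPGD show no overlap between the populations among the 6 ratios drawn.

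The receptors had the lowest levels of the 10 genes. PTGFR was listed at 0 in all MP libraries and in SP replicates 1 and 2, and at 0.00832 FPKM in SP replicate 3. At the estimated depth that value stands for 0.187 fragments per kilobase of transcript, which is about 1 fragment on a long transcript. No fold change was computed for it, and PTGFR RNA was not detectable above single fragments at this depth.

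PTGER2, a prostaglandin E2 receptor that raises cyclic AMP, was at 0.653, 1.02 and 1.11 FPKM in SP and at 0.815, 1.05 and 0.722 FPKM in MP. These values rest on about 8.07 to 25.0 fragments per kilobase in SP and 17.7 to 41.1 in MP. The groups overlapped and the fold change was 0.05 (95% interval −0.42 to 0.51; limma adjusted p = 0.864). PTGER4, the other prostaglandin E2 receptor of this kind, was at 0.912, 0.520 and 1.26 FPKM in SP, against 3.76, 1.18 and 2.96 FPKM in MP. Only MP replicate 2 reached into the SP range. The fold change of −0.88 (95% interval −1.64 to −0.12) did not pass (limma adjusted p = 0.0648), but passed without MP replicate 2 (−1.21, limma adjusted p = 0.0284), while it was −0.65 without MP replicate 1 (limma adjusted p = 0.178). PTGER4 over PTGER2 was 1.40, 0.509 and 1.13 in SP and 4.61, 1.13 and 4.10 in MP (log2 difference −1.58, exact two-sided permutation p = 0.3; adjusted 0.48).

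In SP the order of mean levels ran from AKR1B1 and SLCO2A1 to PTGIS, HPGD, PTGS2, PTGES, PTGS1, PTGER2, PTGER4 and PTGFR. Neighbours in this order were separate in all libraries only between SLCO2A1 and PTGIS and between PTGER4 and PTGFR. In MP it ran from AKR1B1 to HPGD, PTGS2, PTGS1, PTGIS, SLCO2A1, PTGES, PTGER4, PTGER2 and PTGFR. There the separate neighbours were AKR1B1 and HPGD, PTGER4 and PTGER2, and PTGER2 and PTGFR. SLCO2A1 thus stood at rank 2 in SP and at rank 6 in MP, and PTGS1 at rank 7 in SP and at rank 4 in MP.

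Other genes of the prostaglandin pathway were read from 4 lists with 42 symbols, of which 35 were found and 23 tested. Of these, 1 rose, against 20.5% of all tested genes, 7 fell, against 18.7%, and 15 did not pass. The direction of 2 of the 7, HPGDS and PTGDR, was fixed by the filter. None of the 7 tested genes of arachidonate release passed (median fold change 0.17), among them the cytosolic phospholipase A2 gene PLA2G4A which spanned 0.546 to 1.67 FPKM in SP and 0.896 to 2.16 FPKM in MP. MGLL, which frees arachidonate from its monoacylglycerol, was at 34.8 to 35.9 FPKM in SP, against 29.1 to 34.3 FPKM in MP, and PLA2G16, a phospholipase, at 28.0 to 35.5 FPKM in SP, against 19.4 to 36.1 FPKM in MP.

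Of 8 other synthases and reductases tested, 4 fell, against 18.7% of all tested genes, and none rose, against 20.5% (median fold change −0.98). The filter fixed the direction of 1 of the 4, HPGDS. PTGDS, the lipocalin-type prostaglandin D synthase, was at 409, 250 and 228 FPKM in SP, against 685, 496 and 583 FPKM in MP, without overlap (fold change −1.03, limma adjusted p = 0.0264). PTGDS passed in 10 of 16 alternatives, the call being lost without any filter (limma adjusted p = 0.0523) and when any library but SP replicate 1 was left out (limma adjusted p = 0.0516 to 0.0846). HPGDS, the haematopoietic prostaglandin D synthase, was at 0.0628, 0.196 and 0.137 FPKM in SP and at 6.85, 11.5 and 8.99 FPKM in MP. Summed markers of mast cells were lower in SP, as were those of myeloid, T and NK, fibroblast, and pericyte and smooth muscle cells. The part of these cells was not tested. FAM213B, which makes prostaglandin F2α and its ethanolamide, was at 10.8, 15.3 and 16.2 FPKM in SP, against 53.6, 60.1 and 71.5 FPKM in MP (fold change −2.06, limma adjusted p = 0.00203). CBR3, a carbonyl reductase, had a fold change of −1.03 (limma adjusted p = 0.0187), and lost the call without SP replicate 2 or 3 or MP replicate 1 (limma adjusted p = 0.0559 to 0.0644). The most abundant gene of the list was PTGES3, a cochaperone also described as a prostaglandin E synthase, at 628 ± 74.4 FPKM in SP, against 669 ± 126 FPKM in MP (mean ± SD, n = 3; limma adjusted p = 0.794).

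Beyond SLCO2A1 and HPGD, 5 genes of export and catabolism were tested. SLCO4A1, an organic anion carrier that also takes prostaglandin E2, was at 88.7, 24.8 and 38.7 FPKM in SP, against 7.08, 5.38 and 22.6 FPKM in MP (fold change 2.08, limma adjusted p = 0.0287). Its groups did not overlap, although MP replicate 3 came close to SP replicate 2, and the call held in 11 of 16 alternatives, not without SP replicate 1 or 3 or MP replicate 1 or 2 nor without a filter (limma adjusted p = 0.0629 to 0.0906). PTGR2, a reductase acting after HPGD, fell by 1.25 on the log2 scale (limma adjusted p = 0.0219), with 4.73 to 7.89 FPKM in SP and 10.2 to 22.3 FPKM in MP. That call held in 11 of 16 alternatives, not without SP replicate 1 or 3 or MP replicate 1 or 2 nor after rescaling to equal sums (limma adjusted p = 0.0588 to 0.0751). PTGR1, SLCO3A1 and ZADH2 did not pass.

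Of the 7 other prostanoid receptor genes 3 were tested. PTGFRN, a negative regulator of the prostaglandin F2α receptor and not itself a receptor of it, was at 0.318, 1.01 and 1.48 FPKM in SP, against 25.3, 12.1 and 7.99 FPKM in MP (fold change −2.96, limma adjusted p = 0.00344). It had a clear level in MP while PTGFR was listed at 0 there. PTGDR, a prostaglandin D2 receptor, was at 0.0260 to 0.309 FPKM in SP, against 2.07 to 3.42 FPKM in MP. TBXA2R, the thromboxane receptor, did not pass. PTGER1, PTGER3, PTGDR2 and PTGIR were under the filter and below 1 FPKM in every library.

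**Figure D5:**
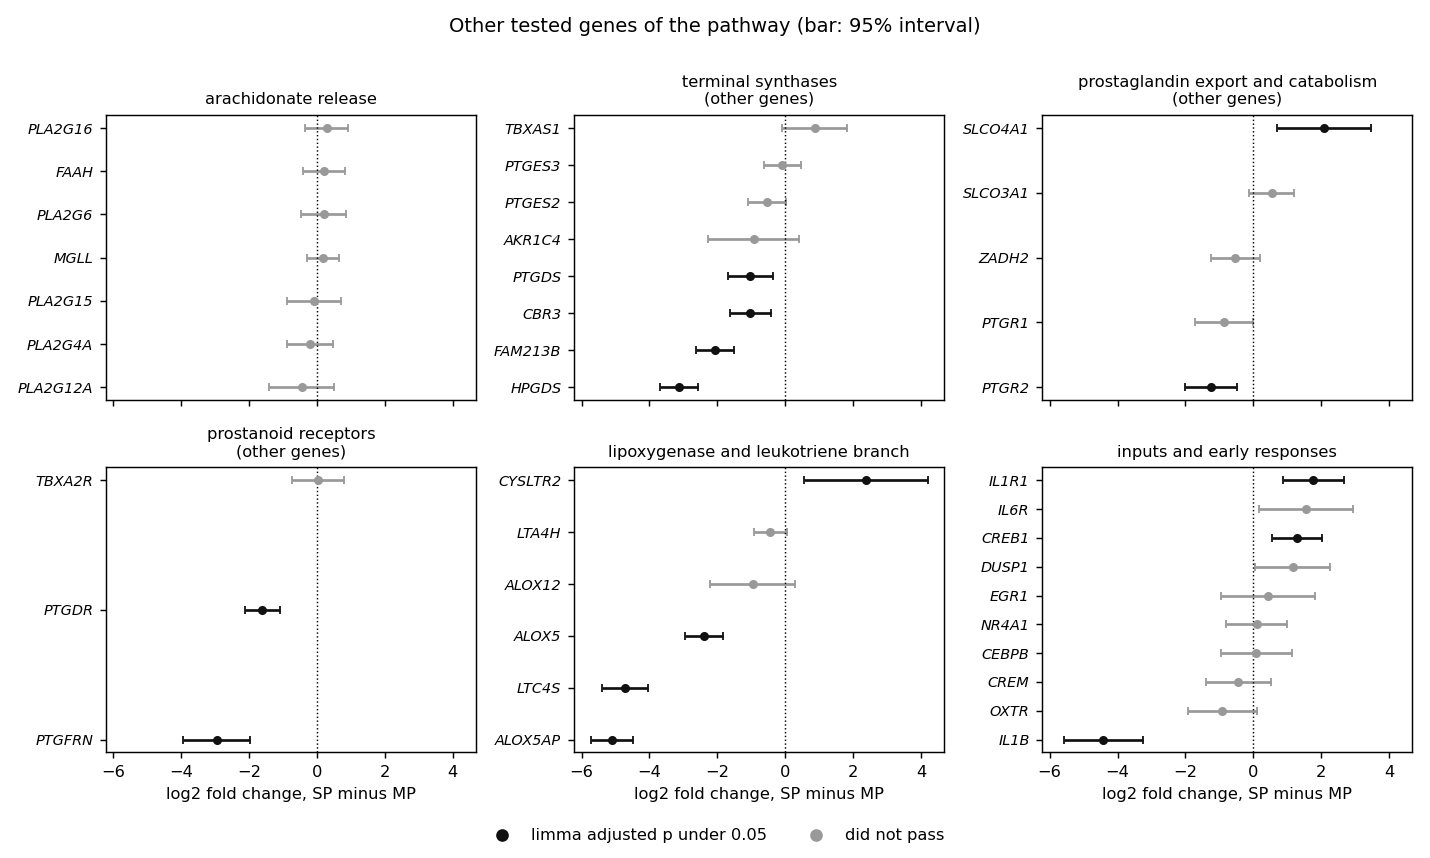
Fold change (SP minus MP, log2 scale) with 95% intervals of the other tested genes of the pathway by list, black where the limma adjusted p was under 0.05. Black points lie on the left for 7 of the 8 called prostaglandin genes, SLCO4A1 being the one on the right.

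By the locus entries of the files (build ARS-UCD1.2, starts counted from 1, introns included), PTGS1 lies within chromosome 11, 93228778 to 93262108, and PTGES on the same chromosome, 100121988 to 100133425. PTGS2 is at chromosome 16, 67728006 to 67735629, AKR1B1 within chromosome 4, 98115287 to 98141657, and PTGIS at chromosome 13, 77590822 to 77642755. HPGD is at chromosome 8, 6787672 to 6824508, and SLCO2A1 at chromosome 1, 135336890 to 135423994. The receptor loci are chromosome 3, 66123322 to 66193794 for PTGFR, chromosome 10, 11826430 to 11838823 for PTGER2 and chromosome 20, 33747128 to 33760309 for PTGER4. The entries of PTGS1, AKR1B1, SLCO2A1 and PTGFR are shared with an uncharacterized LOC gene and may be wider than the gene. Those LOC genes were at 0 in all libraries for PTGS1 and PTGFR, and at most 0.709 FPKM for AKR1B1.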

How the data were processed

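The authors deposited FPKM per gene and library, per the file headers, and no between-library scaling is described. Per the submitters' processing notes, cutadapt 2.5, HISAT2 2.1.0 and the build ARS-UCD1.2 were used. The labels' protocols name a stranded mRNA kit, but the sources used here give neither the quantifier nor the annotation version nor whether counting used strand. Per the file headers, only the MP columns carry the word micro, so a handling difference it might mark cannot be told apart from the population. An exact 0 can be a failed estimate. A few abundant transcripts can shift the FPKM of all other genes, and sums ranged from 647501 to 963629.

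Sample titles gave the group and the replicate number, and both libraries titled replicate 3, SP and MP, carry the number 4 in their column names. A row pooling 662 symbols was left out (0.185% to 0.347% of the sum in SP, 0.743% to 1.91% in MP). limma 3.58.1 in R 4.3.3 was fitted to log2(FPKM + 1) (eBayes with a trend, two-sided, Benjamini-Hochberg over 12127 genes). Exact permutation tests used scipy 1.17.1. On simulated data with 12127 genes the fit called 12%, 76%, 90% and 100% of genes changed by 1, 2, 3 and 4 on the log2 scale with the correct sign, and 5.44% of calls fell on unchanged genes. The simulation changed far fewer genes than were called in the data, and none at the low levels of PTGER2 or PTGER4. Its shares therefore cannot be carried over to the data or to low genes. Depth was estimated from the value of 1 fragment in low genes, and on simulated data it was at most 4% off. The counting precision of single values is not known, since the files give no counts.

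The members, lists and tests were chosen with earlier results of these data known. Named genes are the 10 members, up to 4 called genes by smallest p of each pathway list (otherwise the 2 most abundant), and the 2 genes most like each member. PLA2G4A, PTGES3, PTGR1, SLCO3A1, ZADH2, TBXA2R, the receptors under the filter and OXTR were named outside this rule, after values were seen. PLAAT3, PRXL2B and PTGR3 are later names of genes found here as PLA2G16, FAM213B and ZADH2, and PLA2G4C, PLA2G10, AKR1B5 and ABCC4 were not analysed here. All 10 members were found by symbol in a RefSeq table (assembly ARS-UCD2.0), used for names alone. Alternatives changed the pseudocount, filter, scaling, moderation, replicate block and each library in turn.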

Additional observations from a re-analysis of the deposited data

How the results depend on the processing

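The direction and call of PTGS1 and SLCO2A1 held in all 16 alternatives (adjusted p by limma from 0.00178 to 0.0101 and from 0.00157 to 0.0251). PTGS2 was called in 14 of 16 (by limma, adjusted p from 0.0119 to 0.0567). Scaling did not change the 3 calls, although rescaling to a sum of 1e6 shifted the median of all genes to 0.20 and made 68.1% of all calls higher in SP, against 52.3% as deposited. PTGIS turned to −0.013 with median ratio scaling, to −0.08 and −0.034 without SP replicates 2 and 3 and to −0.168 without MP replicate 2. PTGER2 turned to −0.008 without MP replicate 3. Leaving out 1 library gave 2421 to 4455 called genes, against 4759, and 2 to 6 called members, 6 of them without SP replicate 3 and 2 without SP replicate 1 or MP replicate 1. It gave fold changes of −2.52 to −2.16 for PTGS1, −2.10 to −1.31 for PTGS2, −1.64 to −0.33 for PTGES, −1.50 to −0.58 for AKR1B1, −0.17 to 0.33 for PTGIS, −1.95 to −0.73 for HPGD, 2.03 to 2.85 for SLCO2A1, −0.01 to 0.15 for PTGER2 and −1.21 to −0.65 for PTGER4. It gave 2 to 6 calls in the 4 prostaglandin lists, against 8, and 29 to 49 among the markers, against 52. The log2 difference of PTGS2 over PTGS1 then ran from 0.69 to 1.29 and that of SLCO2A1 over HPGD from 3.31 to 4.84. It ran from −0.87 to 0.54 for PTGES over AKR1B1, from 0.48 to 2.37 for PTGIS over PTGES, from 0.18 to 1.57 for HPGD over PTGS1 plus PTGS2 and from −2.22 to −1.14 for PTGER4 over PTGER2.

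Of the other named pathway genes, FAM213B and PTGFRN were called in all 16 alternatives. HPGDS and PTGDR were tested in 12, and since they entered through MP values alone their calls there are no sign of stability. Adjusted p by limma ran from 0.00688 to 0.0846 for PTGDS, from 0.00747 to 0.0751 for PTGR2, from 0.00899 to 0.0906 for SLCO4A1 and from 0.0132 to 0.0644 for CBR3. Deviations of same-numbered SP and MP libraries correlated at 0.105, 0.533 and −0.085 across 12127 genes, and those of differently numbered libraries at −0.42 to 0.279. Only the pair numbered 2 lay above that range, and not every pair reached 0.1. The numbers were thus not taken to pair the samples, though the labels do not settle whether they do. With the replicate block 5 members were called, HPGD (−1.40, limma adjusted p = 0.0391) and PTGER4 (−0.88, limma adjusted p = 0.0361) being added. The causes of these changes were not tested.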

Other observations

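The lipoxygenase branch, which makes leukotrienes from the same arachidonate, was read from a list of 10 genes, 6 of them tested. Of these, 3 fell, against 18.7% of all tested genes, and CYSLTR2 rose, against 20.5%. ALOX5AP, which presents arachidonate to the lipoxygenase, was at 0.737, 0.228 and 0.666 FPKM in SP, against 39.2, 55.1 and 62.5 FPKM in MP. LTC4S, leukotriene C4 synthase, was at 2.97, 3.87 and 4.98 FPKM in SP and at 97.3, 123 and 176 FPKM in MP (fold change −4.73, limma adjusted p = 0.000251). ALOX5, the lipoxygenase itself, had at most 0.119 FPKM in SP and 3.82 to 6.61 FPKM in MP. The filter fixed the direction of ALOX5AP and ALOX5. CYSLTR2, a receptor of the cysteinyl leukotrienes, was at 90.2, 109 and 93.3 FPKM in SP and at 4.76, 15.2 and 71.1 FPKM in MP (fold change 2.38, limma adjusted p = 0.045), and was called in 8 of 16 alternatives. MP replicate 3 was the highest MP library for CYSLTR2 and for the summed endothelial markers, which were at 1081 FPKM there and at 1780 FPKM or more in SP. Mast cell and myeloid markers were lower in SP in the same libraries, and their part was not tested.

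Of 10 tested genes that feed or follow prostaglandin signalling, IL1R1 and CREB1 rose, against 20.5% of all tested genes. IL1B fell, against 18.7% of all tested genes, and 7 did not pass. IL1B, a cytokine that induces PTGS2, was at 1.60, 0.395 and 0.373 FPKM in SP, against 65.1, 40.8 and 16.6 FPKM in MP (fold change −4.42, limma adjusted p = 0.00173). Its receptor gene IL1R1 was at 94.9, 107 and 124 FPKM in SP, against 27.2, 18.8 and 57.7 FPKM in MP (fold change 1.77, limma adjusted p = 0.0122). CREB1, a transcription factor downstream of cyclic AMP, had 6.30 to 10.2 FPKM in SP and 2.00 to 4.75 FPKM in MP (limma adjusted p = 0.0185; called in 12 of 16 alternatives). OXTR, the oxytocin receptor through which prostaglandin F2α release is driven in the cow, was at 0.325, 1.49 and 1.87 FPKM in SP and at 4.36, 4.46 and 1.18 FPKM in MP and did not pass (limma adjusted p = 0.13).

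The genes with the profile most like that of a member over the 6 libraries (Pearson r on log2(FPKM + 1), mean of at least 5 FPKM) are given as a description, since libraries and scaling are shared. They were CD58 and CAV2 for SLCO2A1 (both r = 0.998), MKKS and TNS3 for PTGS1 (0.998 and 0.997) and PMP22 and C5H12orf73 for PTGS2 (0.994 and 0.993). For HPGD they were AP1M2 and CXCL14 (0.997 and 0.99) and for AKR1B1 CXCL14 and PCCB (0.995 and 0.993). An r of at least 0.95 was reached by 643 genes for SLCO2A1 and 401 for PTGS1, but by 1 gene each for PTGES (NICN1, 0.952) and PTGIS (TIPRL, 0.954). The second for these were GPX2 (0.939) and MYCBP (0.921). PTGER2 was nearest to RNF4 and AKT2 (0.997 and 0.974) and PTGER4 to MLST8 and CAMK2D (0.985 and 0.981).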
